A study of Mus musculus with 16 samples.

Results

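The immediate early genes described here are *Fos*, *Fosb*, *Junb*, *Egr1*, *Egr2*, *Arc*, *Nr4a1*, *Ier2*, *Dusp1* and *Npas4*, chosen by name, and all 10 were among the 18167 genes measured. Spinal cord RNA was sequenced in 16 transgenic mice on a C57BL/6N background, all labelled male. Mutant mice carry human profilin 1 with the G118V change, as Tg(Prnp-PFN1*G118V)838Kiaei/J, and develop motor neuron disease. Wild-type mice carry unchanged human profilin 1, as Tg(Prnp-PFN1)850Kiaei/J. In both lines a prion protein promoter, active in many cell types, drives the transgene, each line stems from its own insertion, and no mouse without a transgene was part of the series. The 3 mutant young (MY) mice were presymptomatic at 50 days, and the 3 wild-type young (WY) mice were also 50 days old. The 5 mutant old (MO) mice were at end stage, when a mouse laid on its side no longer righted itself in time, and were 175 to 245 days old. The 5 wild-type old (WO) mice were 190 to 294 days old. Libraries came in 2 batches, and every young mouse was in batch 1, as were MO1 to MO3 and WO1 to WO3, which leaves MO4, MO5, WO4 and WO5 for batch 2. The WO mice of batch 1 were all 190 days old and those of batch 2 were both 294 days old, while MO4 was 224 and MO5 175. WO vs. MO within batch 2 thus also differs in age.

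Levels are log2(1 + FPKM), where FPKM is a fragment count scaled to transcript length and library size, after the authors' correction for batch. A difference between such values is called a log2 fold change, always the second group minus the first, and it understates the change of a gene with a low level. No count of reads per gene was available, and the only error is the spread between mice. MO5 went against its label, with *Xist*, the RNA that coats the inactive X chromosome, at a log2 level of 3.21, where the other 15 mice lay between -0.36 and 0.37. *Ddx3y*, on the Y chromosome, had 1.95 in MO5 and between 4.06 and 4.74 in the other mice. The library labelled MO5 was kept, and values without it are given below.

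Immediate early genes are transcribed within minutes of a stimulus, with no need for new protein, because the factors on their promoters, among them SRF with its ETS partners and CREB, are already present and are switched on by phosphorylation. Synaptic activity, growth factors, cytokines, injury and stress all induce them, in neurons and in glia. FOS, FOSB and JUNB are subunits of the AP-1 transcription factor, EGR1 and EGR2 are zinc finger factors, NR4A1 is an orphan nuclear receptor and NPAS4 is a factor of neurons that calcium entry induces. ARC is an effector at synapses that drives removal of AMPA receptors, DUSP1 is a phosphatase that shuts off MAP kinases, and IER2 is a nuclear protein of the early response.

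Over the 16 mice, *Fos* had the highest mean level, 3.85, which is 13.4 on the FPKM scale and above 67.4% of all genes. *Arc* followed at 3.68, *Egr1* at 3.65, *Dusp1* at 3.44, *Junb* at 3.19, *Nr4a1* at 2.64, *Ier2* at 2.19 and *Npas4*, whose mean is 1.83 on the FPKM scale. *Fosb*, at 0.87, and *Egr2*, at 0.40, were the lowest, and *Egr2* exceeded only 16.5% of all genes. In the WO mice the levels of *Fos* (3.83 ± 0.25, SD, n = 5), *Arc* (3.82 ± 0.17) and *Egr1* (3.72 ± 0.20) did not differ beyond their spread. The order was not the same in the MO mice, where *Fos* was at 4.26 ± 0.43 (SD, n = 5), *Egr1* at 3.86 ± 0.32, *Junb* at 3.79 ± 0.28 and *Arc* at 3.41 ± 0.12.

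**Figure D1:**
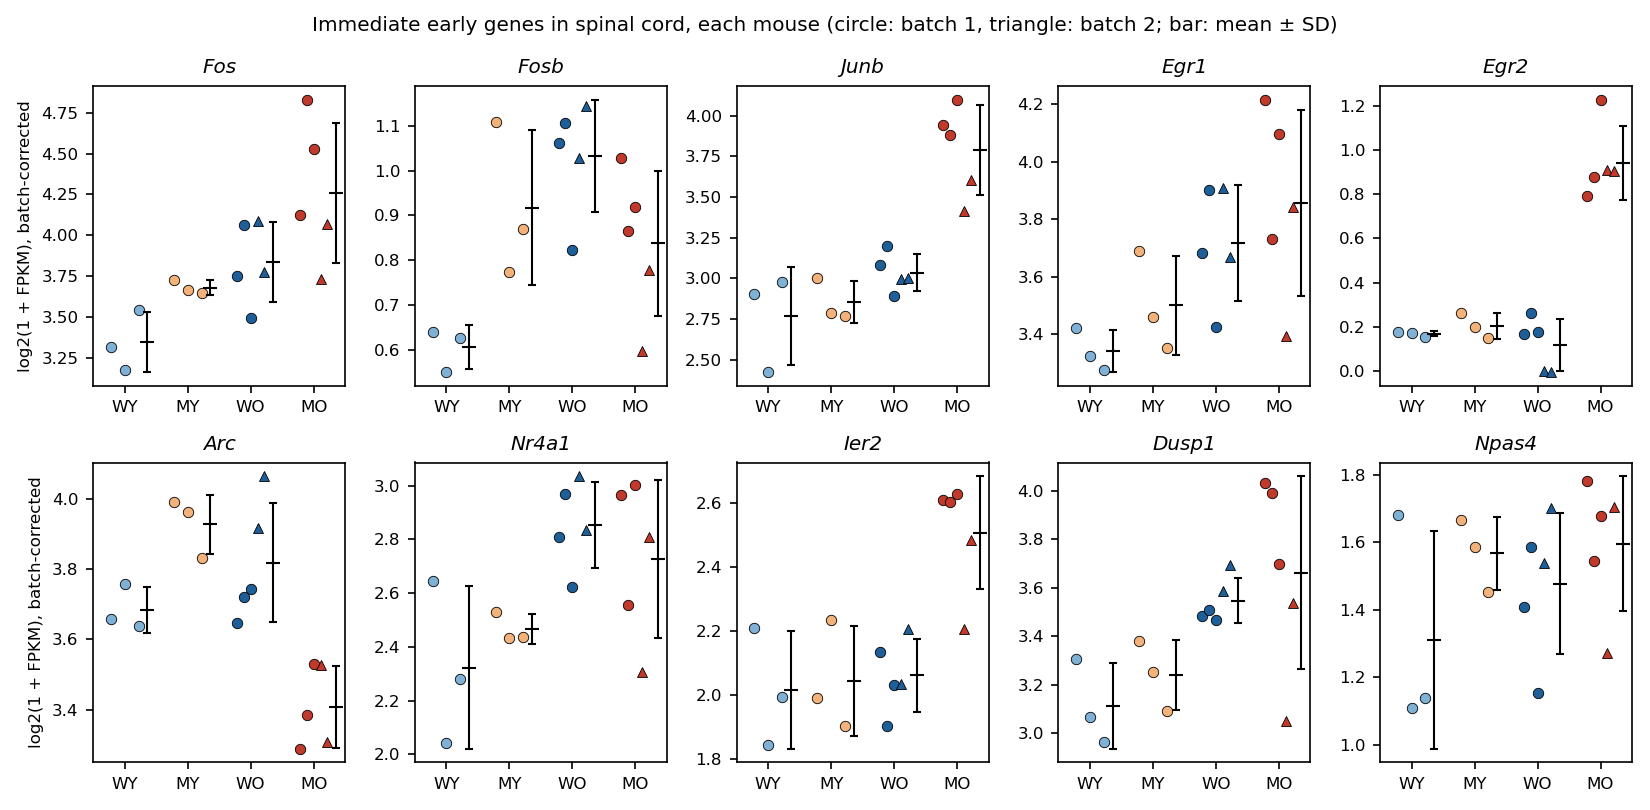
The level of each immediate early gene, in log2(1 + FPKM) after batch correction, is plotted for every mouse of the WY, MY, WO and MO groups, with the group mean ± SD as a bar and an axis of its own in each panel. All 5 MO mice lie above the other mice for *Junb* and *Egr2* and below them for *Arc*.

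The comparison of presymptomatic with end-stage mutant mice (MY vs. MO) spans the course of disease and ageing together. MY mice were 50 days old and MO mice 175 to 245, so disease and age cannot be told apart in it. *Junb* and *Egr2* rose, *Ier2* rose by less than the fold change threshold, and *Arc*, the synaptic effector, fell by less than that threshold. *Fos*, *Egr1*, *Nr4a1*, *Dusp1*, *Npas4* and *Fosb* did not pass the test. With limma, a gene was called at a Benjamini-Hochberg FDR of at most 0.05 over all 18167 genes together with a fold change of at least 1.5, and 2 of the 10 genes were called, against 4.90% of all genes. With the FDR alone 4 of 10 passed, against 25.6% of all genes, and in 4 of 10 the groups did not overlap, against 31.6% of all genes and 3.57% by chance. With so few genes, both shares of 4 of 10 are near the background and say nothing particular about immediate early genes. Their median log2 fold change was 0.39, and that of all genes 0.00472.

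The comparison of end-stage mutant mice with old mice of the wild-type transgene (WO vs. MO) shares its MO mice with the comparison above. Since each line stems from its own insertion, the mutation and the insertion cannot be told apart in it. *Junb* and *Egr2* were called here as well, so that 2 of 10 genes passed both thresholds, against 4.60% of all genes. *Ier2* and *Arc* again passed the FDR alone, which made 4 of 10, against 27.9% of all genes. This share too is near the background for so few genes. The groups did not overlap in 4 of 10 genes, against 19.9% of all genes and 0.794% by chance. The median log2 fold change was 0.13 over the 10 genes and 0.00035 over all genes. All MO mice lay above all 11 other mice for *Junb* and *Egr2* and below them for *Arc*, and 10.2% of all genes had such a gap.

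*Junb* is an AP-1 subunit that can damp transcription driven by JUN. Its level was 3.94, 3.88, 4.10, 3.42 and 3.60 in MO1 to MO5. It was 3.00, 2.79 and 2.77 in MY1 to MY3, and 3.08, 3.20, 2.89, 3.00 and 3.00 in WO1 to WO5. The WY mice had 2.91, 2.42 and 2.98, so no other mouse reached the lowest MO mouse. The log2 fold change was 0.94 in MY vs. MO (SE 0.15, limma adjusted p = 0.0029) and 0.75 in WO vs. MO (SE 0.12, limma adjusted p = 0.000983), and every MO mouse showed the direction. Without MO5 these were 0.98 and 0.80. Within batch 1, WO vs. MO gave 0.92, and within batch 2, with 2 mice in each group, it gave 0.51, past the FDR and under the fold change threshold.

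*Egr2*, also named Krox20, is best known as the master regulator of myelination in Schwann cells, and myeloid and lymphoid cells induce it too. On the FPKM scale it was 0.730, 0.837, 1.34, 0.878 and 0.873 in MO1 to MO5. The MY mice had 0.201, 0.150 and 0.109, and the WY mice 0.132, 0.127 and 0.114. Among the WO mice it was 0.123, 0.198 and 0.131 in batch 1, and in WO4 and WO5, of batch 2, the corrected log2 level was 0.00 and -0.01, just above and just below the value that stands for no expression. All MO mice thus lay above a low level shared by the other groups. Expressed as log2, the change was 0.74 in MY vs. MO (SE 0.09, limma adjusted p = 0.000988) and 0.82 in WO vs. MO (SE 0.08, limma adjusted p = 6.97e-05). Without MO5 these were 0.75 and 0.83, and within batches WO vs. MO gave 0.76 in batch 1 and 0.91 in batch 2. Because 1 is large beside such FPKM values, the log2 fold changes were 2.02 and 2.55 when 0.1 was added in its place, and 2.53 and 4.12 with 0.01, so their size depends on that choice. *Egr2* was not tested when genes with a mean level under 1 were left out.

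The Schwann cell and nerve root list gave 0 of 4 genes past both thresholds in limma in either comparison, and 1 and 0 had an unadjusted p under 0.05. *Prx* had a mean level of 0.21 over the 16 mice, near 0, whereas *Pmp22*, which other cells of the cord express too, was the most abundant gene of the list at 6.35. The summed FPKM of the list was 58.9, 76.3, 76.1, 96.8 and 74.0 in MO1 to MO5 between 72.4 and 78.7 in the WO mice, 88.0 to 92.2 in the MY mice and 86.5 to 97.1 in the WY mice, and 1 of the 4 genes passed the FDR downward in MY vs. MO. Its part in the level of *Egr2* was not tested.

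*Arc* went the other way. Its level was 3.29, 3.38, 3.53, 3.53 and 3.31 in MO1 to MO5, and 3.99, 3.96 and 3.83 in MY1 to MY3. The WO mice had 3.64, 3.72, 3.74, 3.92 and 4.06, and the WY mice 3.66, 3.76 and 3.64. No MO mouse reached the lowest of the other mice. In log2 fold change this was -0.52 in MY vs. MO (SE 0.07, limma adjusted p = 0.00158) and -0.41 in WO vs. MO (SE 0.08, limma adjusted p = 0.00447), both smaller than the fold change threshold. Without MO5 they were -0.50 and -0.39, and WO vs. MO gave -0.30 within batch 1 and -0.57 within batch 2.

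*Ier2* was at 2.61, 2.60, 2.63, 2.21 and 2.49 in MO1 to MO5, and at 1.99, 2.24 and 1.90 in MY1 to MY3. In WO1 to WO5 it was 2.13, 1.90, 2.03, 2.04 and 2.21. The WY mice had 2.21, 1.85 and 1.99. MO4 thus fell among the MY mice, just above the highest WO mouse and just below WY1. The log2 fold change was 0.46 in MY vs. MO (SE 0.11, limma adjusted p = 0.0178) and 0.44 in WO vs. MO (SE 0.09, limma adjusted p = 0.00328), and without MO5 0.47 and 0.45. In MY vs. MO the adjusted p rose above 0.05 without MY1 or MY3 and reached 0.0804. Within batches WO vs. MO gave 0.59 in batch 1, past both thresholds, and 0.23 in batch 2, which did not pass the FDR.

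*Fos*, the partner of JUN proteins in AP-1, was at 4.12, 4.83, 4.53, 3.73 and 4.07 in MO1 to MO5. It was 3.73, 3.67 and 3.64 in MY1 to MY3, and 3.75, 4.06, 3.50, 4.09 and 3.78 in WO1 to WO5. The 3 MO mice of batch 1 were above all WO mice and the 2 of batch 2 were within their range. The log2 fold change was 0.58 in MY vs. MO (95% confidence interval 0.08 to 1.08, limma adjusted p = 0.0893) and 0.42 in WO vs. MO (-0.01 to 0.85, limma adjusted p = 0.139). In WO vs. MO it was 0.73 within batch 1 and -0.03 within batch 2. In MY vs. MO *Fos* passed the FDR alone when all 4 groups were in 1 fit, at 0.58. In batch 1 alone *Fos* and *Dusp1* also passed both thresholds in MY vs. MO, at 0.82 and 0.67, and without MO4 *Fos* passed both thresholds there at 0.71. With batch as a term or the replicate number as a block *Fos* passed both thresholds in MY vs. MO too, at 0.82. Without MO4 *Dusp1*, *Egr1* and *Nr4a1* also passed the FDR alone in MY vs. MO, at 0.58, 0.47 and 0.37, as did *Fos* in WO vs. MO at 0.55.

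*Egr1*, a zinc finger factor that binds GC-rich promoters, had a log2 fold change of 0.36 in MY vs. MO (95% confidence interval -0.05 to 0.76) and 0.14 in WO vs. MO (-0.19 to 0.47). *Dusp1* had 0.42 (-0.05 to 0.90) and 0.12 (-0.24 to 0.48), and *Nr4a1* 0.26 (-0.09 to 0.61) and -0.13 (-0.42 to 0.17). For *Npas4*, the factor of neurons, the values were 0.03 (-0.23 to 0.28) and 0.12 (-0.14 to 0.38). *Fosb* had -0.08 (-0.32 to 0.16) and -0.20 (-0.38 to -0.01). In these fits of the 2 groups alone none of these 5 genes passed the FDR in either comparison, and the intervals leave room for moderate changes. *Fosb* passed the FDR in WO vs. MO without WO3, at -0.25, and after quantile normalization, at -0.28. Within batch 1, WO vs. MO gave 0.35 for *Egr1*, 0.42 for *Dusp1*, which passed the FDR there, 0.28 for *Npas4* and 0.04 for *Nr4a1*, and within batch 2 it gave -0.17, -0.35, -0.13 and -0.38. In MY vs. MO *Egr1* passed the FDR alone within batch 1 and with the replicate number as a block, at 0.51 both times, and *Dusp1* passed both thresholds with that block or with batch as a term, at 0.67.

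**Figure D2:**
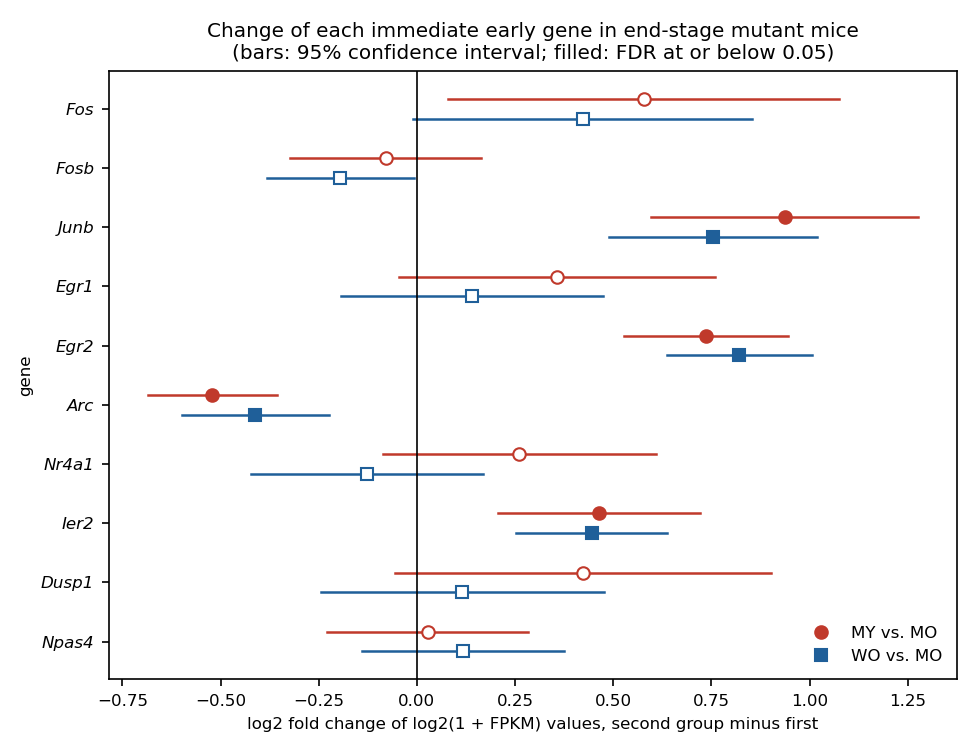
The log2 fold change of each gene on the horizontal axis is shown for MY vs. MO (circles) and WO vs. MO (squares), with its 95% confidence interval as a bar and a filled symbol where the FDR was at most 0.05. *Junb* and *Egr2* stand at 0.74 to 0.94, *Ier2* near 0.45 and *Arc* at -0.52 and -0.41, and the other 6 genes have open symbols.

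The mice within the MO group were not alike. MO4 had the lowest MO value in 8 of the 10 genes and was above the group mean in 1, and MO3 was above the mean in all 10. The median deviation from the MO mean over the 10 genes was -0.35 in MO4, -0.05 in MO5, 0.17 in MO1 and 0.18 in MO3. MO4 and MO5 are the batch 2 mice of the group. The summed FPKM of the 7 oligodendrocyte markers, led by *Mbp*, was 22276 and 21696 in these mice, and 7205, 7708 and 7805 in MO1, MO2 and MO3. Among the WO mice it was 10266, 9515 and 9547 in batch 1, and 5315 and 23948 in WO4 and WO5. These gaps rest mainly on *Mbp* itself, at 39.9 in WO4 and 19069 in WO5, and without it the sum was 5275 and 4880 in these mice, 4552 and 3636 in MO4 and MO5, and 2634, 3123 and 2968 in MO1, MO2 and MO3. Of these markers 3 of 7 were lower by both thresholds in MY vs. MO and 1 of 7 in WO vs. MO, against 4.90% and 4.60% of all genes. In WO vs. MO 1 of 7 passed the FDR alone upward. With age in wild-type mice (WY vs. WO) *Cldn11* (-0.86) and *Mog* (-0.77) were lower, as was *Aqp4* (-0.65) of the astrocyte list. The mean level of *Cldn11* was 8.49 in the MO mice and 8.08 in the WO mice. The part of the oligodendrocyte sum in the levels of the immediate early genes was not tested.

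In wild-type mice between 50 days and old age (WY vs. WO), 0 of 10 genes passed both limma thresholds, against 0.253% of all genes. *Fosb*, a subunit whose stable splice form builds up with repeated activity, rose with the FDR alone, which made 1 of 10, against 1.12% of all genes. Its level was 0.64, 0.55 and 0.63 in the WY mice and 1.06, 1.11, 0.82, 1.03 and 1.15 in WO1 to WO5, so the groups were apart. The log2 fold change was 0.43 (SE 0.07, limma adjusted p = 0.0424), and the adjusted p rose above 0.05 in 7 of the 8 fits that left out 1 mouse, the exception being WO3, with values from 0.40 to 0.48 in those fits. Within batch 1, with batch as a term and with the replicate number as a block it did not pass either, at 0.39 each time. With 0.1 in place of the added 1, *Fosb* passed both thresholds at 0.88, and with 0.01 it did not pass, at 0.99. Without WY1 *Dusp1* passed the FDR alone at 0.53, and among genes with a mean of at least 1 at 0.44. At an unadjusted p under 0.05 there were 5 of 10 genes, against 13.5% of all genes, and the median log2 fold change of the 10 was 0.32, with 0.00176 for all genes. The other 4 were *Nr4a1* at 0.53, *Fos* at 0.49, *Dusp1* at 0.44 and *Egr1* at 0.38, with adjusted p of 0.127, 0.176, 0.0594 and 0.170 in limma. The groups did not overlap in 3 of 10 genes, *Fosb*, *Dusp1* and *Egr1*, against 9.67% of all genes and 3.57% by chance. *Egr2* (-0.05) and *Ier2* (0.05) were near 0.

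At 50 days (WY vs. MY), before symptoms, 0 of 10 genes passed in limma with either rule, against 0.00550% of all genes, which is 1 gene. At an unadjusted p under 0.05 there were 3, against 7.16% of all genes, *Arc* at 0.24, *Fos* at 0.33 and *Fosb* at 0.31, all higher in MY, and these were also the 3 of 10 whose groups did not overlap, against 13.7% of all genes and 10% by chance. Their adjusted p were 0.564, 0.592 and 0.605 in limma. *Junb*, with 0.08 (95% confidence interval -0.29 to 0.46), and *Egr2*, with 0.04 (-0.07 to 0.14), were both within their spread.

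Whether age acted differently in the genotypes was tested in 1 limma fit as MO minus MY, less WO minus WY. By this test 3 of 10 genes passed both thresholds, against 5.61% of all genes, and 4 of 10 passed the FDR alone, against 17.7%. The difference was 0.79 for *Egr2* (SE 0.12, adjusted p = 0.000446), 0.67 for *Junb* (SE 0.21, adjusted p = 0.0377), -0.66 for *Arc* (SE 0.12, adjusted p = 0.00231) and -0.51 for *Fosb* (SE 0.14, adjusted p = 0.0187). *Fosb* was thus higher in old than in young wild-type mice and had no such rise in mutant mice, whose young mice were at 1.11, 0.77 and 0.87. The result for *Junb* was close to the threshold, since its adjusted p rose above 0.05 when any 1 of 10 mice was left out (MO1, MO2, MO3, MY2, MY3, WO3, WO4, WO5, WY1 or WY3) and ranged from 0.00768 to 0.101. With 0.1 or 0.01 in place of the added 1 *Junb* did not pass, at 0.73 both times, and *Egr2* passed with 0.1, at 2.39, and not with 0.01, at 3.88. After quantile normalization *Fosb* passed both thresholds at -0.62, as it did with 0.1 and 0.01, at -1.04 and -1.17. *Fosb* did not pass without MY1, at -0.41, or within batch 1, at -0.37. *Arc* was at -0.55 within batch 1, under the fold change threshold. For *Ier2* the difference was 0.42 (adjusted p = 0.0758), and it passed the FDR alone without MO4 (0.49), MY2 (0.51) or WY2 (0.50) and within batch 1 (0.56), and for *Fos*, *Egr1* and *Dusp1* it was 0.09, -0.02 and -0.01.

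Pearson correlations over the 16 mice describe how the genes vary together, and mice of a group share genotype, age and batch. Between levels, r was 0.88 for *Junb* with *Egr2* (Spearman rho 0.66), 0.88 for *Junb* with *Ier2* (rho 0.69) and 0.85 for *Fos* with *Junb* (rho 0.86). *Arc* had r of -0.78 with *Egr2* and -0.74 with *Junb*. When each mouse was expressed as its deviation from its group mean, *Nr4a1* had r of 0.85 with *Npas4* (rho 0.84) and 0.85 with *Egr1* (rho 0.80). In batch 1 alone, with 12 mice, these were 0.88 and 0.74. The 9 pairs with *Egr2* then had a median r of 0.02 and the 9 with *Arc* one of -0.03, and in batch 1 alone 0.27 and -0.07. The pair *Egr2* and *Arc* itself had r of -0.03 over these deviations and 0.80 in batch 1 alone. Over the 28 pairs of the other 8 genes, a grouping made after these values were seen, r ran from 0.34 to 0.85 with a median of 0.65. Without MO4 that median was 0.48, and without MO5 it was 0.66. In batch 1 alone it was 0.37 and 22 of the 28 pairs were above 0. Part of the shared variation thus rested on batch 2 mice, MO4 among them.

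The genes whose levels followed the 10 most closely were ranked among 13522 genes by Pearson r with the mean z-score of the 8 members whose mean level was at least 1. The first over levels were *Map3k3*, a kinase upstream of MAP kinases, at 0.91, *Grk6*, a kinase of G protein-coupled receptors, at 0.91, *Repin1* at 0.89, *Furin*, a proprotein convertase, at 0.89 and *Rarg*, a retinoic acid receptor, at 0.89. *Cdc42bpg*, *Fosl2*, *Wdr81*, *Slc37a1* and *Ctdsp2* completed the first 10, and *Fosl2* is itself a FOS relative, at 0.88. Over deviations from group means, *Repin1* at 0.92 and *Sirt1*, a deacetylase, at 0.91 came first, followed by *Lama5*, *Zfp598*, *Kdm3b*, *Rfx1*, *Map3k3*, *Grk6*, *Ctns* and *Ctdsp2*, and 4 genes were in both sets of 10. In batch 1 alone the ranks over levels were 2 for *Map3k3*, 7 for *Grk6*, 9 for *Rarg*, 10 for *Wdr81*, 21 for *Fosl2*, 29 for *Cdc42bpg*, 42 for *Furin*, 69 for *Repin1*, 74 for *Slc37a1* and 99 for *Ctdsp2*. *Map3k3* ranked 738 over deviations there, and *Rfx1* ranked 1, *Sirt1* 9 and *Repin1* 17, whereas *Lama5* ranked 126, *Zfp598* 241, *Ctns* 349, *Grk6* 707, *Kdm3b* 811 and *Ctdsp2* 1990.

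Of the 14 AP-1 and CREB/ATF partners, 5 passed both thresholds in MY vs. MO and 4 in WO vs. MO, against 4.90% and 4.60% of all genes. With the FDR alone 8 and 10 passed, all upward, against 25.6% and 27.9% of all genes. The list medians were 0.29 and 0.39. *Atf3*, a stress-induced factor also known for its induction in injured neurons, was at 3.76, 3.94, 3.74, 2.89 and 3.30 in MO1 to MO5 and at most 1.00 in every other mouse. Its log2 fold change was 2.62 in MY vs. MO and 2.89 in WO vs. MO (limma adjusted p = 0.000297 and 1.50e-05). The small MAF factor *Maff* rose by 1.43 and 1.32, and *Batf3* by 0.69 and 0.72. *Mafk* had 0.64 and 0.56, and only the former passed the fold change threshold. *Atf4*, the most abundant gene of the list, had 0.26 and 0.30 and passed the FDR in WO vs. MO alone. In WY vs. WO *Fosl2* passed the FDR at 0.39.

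Of the 28 other rapid response genes, 7 passed both thresholds in MY vs. MO and 8 in WO vs. MO, against 4.90% and 4.60% of all genes. All of these were upward, and the list medians were 0.46 and 0.36. *Cebpd* and *Cebpb*, factors of the acute phase response, had log2 fold changes of 1.79 and 1.28 in MY vs. MO and 1.64 and 1.10 in WO vs. MO. *Cyr61*, a secreted matrix protein, had 1.56 and 1.82, and *Myc* 0.70 and 0.79. *Zfp36* and *Zfp36l2*, proteins that bring about decay of AU-rich mRNAs, had 0.72 and 0.83 in MY vs. MO and 0.65 and 0.77 in WO vs. MO. *Trib1* had 0.65 and 0.76. *Sgk1*, the most abundant gene of the list, ranged from 5.52 to 7.69 among MO mice and from 5.30 to 7.47 among WO mice and did not pass in either comparison.

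The 10 other EGR, NR4A and KLF factors and EGR corepressors gave 0 calls by both thresholds in limma in MY vs. MO and in WO vs. MO, where 4 and 3 passed the FDR alone, against 25.6% and 27.9% of all genes, and 5 and 5 had an unadjusted p under 0.05, against 36.7% and 38.5%. *Nab1*, the most abundant, had -0.17 and -0.11. Chosen after their values were seen, *Nab2*, a corepressor that EGR factors induce, had 0.48 and 0.38, and *Egr3* had -0.39 and -0.28, of which the last did not pass the FDR. The age effect on *Egr3* differed between genotypes by -0.63 (limma adjusted p = 0.0202), opposite in sign to *Egr2*.

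Among 16 later neuronal activity genes, *Nefm*, a neurofilament subunit, fell by 0.78 on the log2 scale in MY vs. MO and by 0.70 in WO vs. MO, and *Crh*, a neuropeptide, was higher by 0.59 in WO vs. MO. *Crh* had -0.10 in MY vs. MO and 0.92 in WY vs. MY, where it did not pass. They were the genes of that list past both thresholds in the comparisons of 2 groups. Of 14 MAPK feedback inhibitors, *Dusp6*, a phosphatase of ERK, passed both thresholds in MY vs. MO at 0.64 and the FDR alone in WO vs. MO at 0.48, and *Spred1*, the most abundant, had -0.04 and 0.00. Of 24 upstream kinases and promoter factors, *Elk3*, an ETS partner of SRF, passed both thresholds at 0.69 and 0.67, and *Mapk3*, which encodes ERK1 and was the most abundant, had 0.03 and 0.04. Over all 6 lists, 14 of 106 genes were higher and 1 lower by both thresholds in each of MY vs. MO and WO vs. MO, against 4.90% and 4.60% of all genes. In limma 0 passed both thresholds in WY vs. WO and WY vs. MY, where 21 and 16 had an unadjusted p under 0.05, against 13.5% and 7.16%. With the FDR alone 1 passed in WY vs. WO, *Fosl2*, and 0 in WY vs. MY. The later neuronal activity list gave 7 of the 16 genes with an unadjusted limma p under 0.05 in WY vs. MY. Its median log2 fold change there was 0.19. Groups did not overlap in 8 of its 16 genes, against 13.7% of all genes and 10% by chance.

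Markers of cell types moved with these changes, and in RNA of whole cord fewer cells of a type and less RNA per cell cannot be told apart. Microglia markers passed both thresholds upward in 9 of 10 genes in MY vs. MO and in 8 of 10 in WO vs. MO. For this and the lists below, 4.90% and 4.60% of all genes passed both thresholds in these comparisons. The FDR alone was passed by 25.6% and 27.9%. Their summed FPKM was 1094, 1521, 1742, 988 and 1084 in MO1 to MO5, 262 to 293 in the MY mice, 217 to 355 in the WO mice and 259 to 296 in the WY mice. *C1qb*, the most abundant of them, had log2 fold changes of 2.64 and 2.59. Astrocyte markers passed both thresholds upward in 2 of 8 and 4 of 8 genes, led by *Gfap* at 1.26 and 1.60, and their summed FPKM was 3194 to 4085 in MO mice, 2191 to 2276 in MY mice and 1822 to 2079 in WO mice. MO3 was highest for *Junb*, *Egr2* and the microglia sum, and MO4 was lowest for *Junb* and the microglia sum. For *Egr2*, MO1 was lowest at 0.79 and MO4 was the next after MO3 at 0.91.

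Neuron markers passed both thresholds downward in 2 of 10 genes in both comparisons, and 7 and 6 passed the FDR. Their summed FPKM was 2635 to 3080 in MO mice, 3568 to 3681 in MY mice, 3630 to 4028 in WO mice and 3138 to 3598 in WY mice, so that all MO mice lay below the others, as they did for *Arc*. *Snap25*, the most abundant, had log2 fold changes of -0.27 and -0.41. Motor neuron markers passed the FDR downward in 4 of 6 genes in both comparisons, with list medians of -0.31 and -0.49. *Chat*, the enzyme that makes acetylcholine, had -0.41 and -0.67 and passed both thresholds in WO vs. MO, and *Prph*, the most abundant, had -0.14 and -0.10. The part of these cell types in the changes of *Junb*, *Egr2*, *Ier2* and *Arc* was not tested.

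Glucocorticoid response genes, which overlap in part with genes of injury, passed both thresholds upward in 2 of 8 genes in MY vs. MO and 3 of 8 in WO vs. MO, with *Mt1*, the most abundant, at 1.66 and 1.48. Their summed FPKM was 5157, 5135, 4284, 3306 and 4284 in MO1 to MO5, lowest in MO4, and between 1341 and 2032 in the WO mice. Heat shock genes passed in 1 of 6, *Hspb1*, at 2.34 and 2.47, and their most abundant gene *Hsp90aa1* had -0.15 and -0.12. In each comparison 1 of the 6 passed the FDR alone downward, and the list medians were -0.12 and -0.23. Clock genes passed in 0 of 12 in limma in either comparison, with *Tef* at -0.07 in both, and 2 and 3 of them had an unadjusted p under 0.05, a level that 36.7% of all genes reached in MY vs. MO and 38.5% in WO vs. MO. Of the endothelial markers 0 of 7 passed both thresholds in limma, with 1 and 6 at an unadjusted p under 0.05, the latter above the share of all genes, and 5 were lower by the FDR in WO vs. MO, where the most abundant, *Ly6c1*, had -0.40 and did not pass. Blood (0 of 6), skeletal muscle (0 of 5), sensory neuron (0 of 4) and pericyte and meningeal fibroblast markers (0 of 8) gave no call by both thresholds in limma in MY vs. MO and WO vs. MO, and at an unadjusted p under 0.05 these lists had 0 and 2, 0 and 2, 3 and 3, and 2 and 2 genes. The part of these lists in the levels of the immediate early genes was not tested.

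On GRCm38 (GENCODE M21), *Junb* lies at chr8:84974484-84978718 and *Ier2* at chr8:84661331-84662852, both on the minus strand and 311631 bases apart. *Egr2* lies at chr10:67535475-67542188 on the plus strand, *Arc* at chr15:74669083-74672570 on the minus strand and *Fos* at chr12:85473890-85477273 on the plus strand. Promoter windows of 300 bases, 250 before and 50 from the start of transcription, were taken from RefSeq (GRCm38.p6) for 7 of the 10 genes, and the set of windows used here held none for *Egr1*, *Arc* and *Ier2*. Both strands were searched for the CArG box, which SRF binds, for TGACGTCA, the full CREB element, and for TGACG, its core and a part of it. The CArG box was found in 1 of 7 genes, *Egr2*, and in 1.81% of all 27025 genes with a window. TGACGTCA was found in 1 of 7, *Dusp1*, and in 2.03% of genes, and TGACG in 7 of 7 and in 23.0% of genes. *Egr2* has 5 windows and the other members 1 each, which gives *Egr2* more room for a match. Sequence more than 250 bases before a start was not searched. A gene without a match here may thus still carry the element further away. A match is a description of the sequence, and its use in the cord was not measured. The stretches below carry the matched letters in capitals, on the strand of the gene, and are examples from *Egr2*, *Dusp1*, *Junb* and *Fos*. The *Egr2* stretches are chr10:67537484-67537513 and chr10:67537787-67537816 on the plus strand, each with a CArG box 72 bases before a start. The *Dusp1* stretch is chr17:26508597-26508626 and the *Junb* stretch chr8:84978837-84978866, both on the minus strand, and the *Fos* stretch is chr12:85473812-85473841 on the plus strand.
Egr2 upstream CArG box: cggatcttctCCTTTTTTGGaaagtctcgg
Egr2 downstream CArG box: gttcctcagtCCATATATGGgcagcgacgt
Dusp1 TGACGTCA: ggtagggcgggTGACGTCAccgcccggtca
Junb TGACG: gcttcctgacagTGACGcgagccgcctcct
Fos TGACG: agttccgcccagTGACGtaggaagtccatc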

How the data were processed

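RNA of 16 mouse spinal cords, 1 library each from a stranded mRNA kit, was sequenced by the authors. The deposited log2 values were made by the authors, who used Trimmomatic for cleaning, TopHat for alignment to mm10 and Cufflinks for FPKM, removed genes unexpressed in many samples, added 1, took log2 and corrected for the 2 batches with ComBat. Tool versions and the covariates of the correction are not given in the sources used here. Values below 0 (915 in the table) follow from the correction, which can also shrink or add differences between groups. No column was left unused. Depth per gene is unknown.

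Group, age and batch came from the labels. Fits used limma 3.58.1 in R 4.3.3 (lmFit and eBayes, two-sided), each comparison on its own 2 groups, with Benjamini-Hochberg adjustment over 18167 genes, and were tested on simulated data. The age effect was compared between genotypes in 1 fit of all mice. Summaries used Python 3.11.15, pandas 2.3.3, NumPy 2.4.6, SciPy 1.17.1 and matplotlib 3.10.9. A summed FPKM adds 2 to the power of the level, less 1, over a list, with negative values set to 0. Correlations across mice are descriptions and carry no p.

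Named besides the 10 members were, per list, the genes past both thresholds in any of the 4 comparisons (at most the 6 largest changes per list and comparison), the most abundant gene, the 10 genes most like the members by 2 measures, and *Xist* and *Ddx3y*, though not every gene under this rule is named. Members and lists were chosen with earlier results of these data known. Alternatives were batch 1 only, batch as a term, 1 fit of all groups, a mean of at least 1, quantile normalization, an intensity trend, the replicate number as a block, each mouse left out, the FDR alone, and 0.1 or 0.01 in place of the 1 that the authors added. Batch 2 only, and batch 1 only or without MO4 or MO5 for correlations, were chosen after seeing the data.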

Additional observations from a re-analysis of the deposited data

Results flagged for a closer look

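*Egr2* in MO3, at a log2 level of 1.23, stood far above the other 4 MO mice, which lay between 0.79 and 0.91. It was the only one of 20 tests of a gene in the MO or WO group to be singled out, and chance does so in about 1 of 20. Without MO3 the log2 fold change of *Egr2* was 0.67 in MY vs. MO and 0.75 in WO vs. MO, still past both thresholds.

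The age effect differed between genotypes, by the interaction in limma, in 4 genes. It was larger in mutant mice by 0.79 for *Egr2* and by 0.67 for *Junb*, and the difference was -0.66 for *Arc* and -0.51 for *Fosb*. *Egr2*, *Junb* and *Arc* differed between WO and MO, and no difference between WY and MY passed, whereas *Fosb* was higher in WO than in WY and not higher in MO than in MY.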

How the results depend on the processing

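In MY vs. MO, 4 members passed with batch 1 mice only, with batch as a term and with the replicate block (*Fos* and *Dusp1* added to *Junb* and *Egr2* each time), 4 with the FDR alone (*Arc* and *Ier2* added) and 1 among genes with a mean of at least 1, where *Egr2* was not tested. In WO vs. MO the count was 3 with batch 1 mice only (*Ier2* added), 1 in batch 2 alone (*Egr2*), a fit chosen after seeing the data, 1 with a mean of at least 1 and 4 with the FDR alone. In WY vs. WO it was 1 with the FDR alone, and *Fosb* also passed both thresholds with 0.1 in place of 1, at 0.88. For the age effect, *Junb* did not pass with 0.1 or 0.01, *Egr2* did not with 0.01, *Arc* did not in batch 1 (-0.55), and *Fosb* passed both thresholds with 0.1, with 0.01 and after quantile normalization. The cause was not tested where fewer genes or mice do not give it. When each mouse was left out the counts were 2 to 3 in MY vs. MO, 2 in WO vs. MO, 0 in WY vs. WO and WY vs. MY, and 2 to 3 for the age effect between genotypes.

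Same-numbered mice did not deviate together in every comparison. Over all genes the correlation of their deviations ran from 0.0853 to 0.177 in MY vs. MO, where all 3 MY mice correlated best with their own number, from -0.207 to 0.0913 in WO vs. MO, from -0.129 to 0.377 in WY vs. WO, where 2 of 3 were best with their own number, and from -0.200 to -0.0194 in WY vs. MY, where 0 of 3 were. The labels give these mice only a number in common, and whether they were handled together is not known. With that block, the other counts were 2 in WO vs. MO, 0 in WY vs. WO, 0 in WY vs. MY and 3 for the age effect.

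The changes of sign were in values that did not pass with all mice. With batch 1 mice only, batch as a term or the block, *Fosb* was 0.0204 in MY vs. MO and *Egr2* 0.0330 in WY vs. WO. Quantile normalization gave -0.10 for *Npas4* in MY vs. MO. In batch 2, WO vs. MO was -0.0329 for *Fos*, -0.17 for *Egr1*, -0.35 for *Dusp1* and -0.13 for *Npas4*, and in batch 1 it was 0.0406 for *Nr4a1*. The age effect between genotypes in batch 1 was 0.19 for *Egr1*, 0.29 for *Dusp1* and 0.0271 for *Npas4*. Leaving out 1 mouse gave -0.15 to 0.0162 for *Fosb* and -0.0301 to 0.11 for *Npas4* in MY vs. MO, -0.0393 to 0.14 for *Ier2* in WY vs. WO, -0.0905 to 0.19 for *Junb* and -0.0690 to 0.12 for *Ier2* in WY vs. MY, and for the age effect -0.0551 to 0.22 for *Fos*, -0.11 to 0.10 for *Egr1* and -0.11 to 0.14 for *Dusp1*. The cause of these was not tested.

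Of the other alternatives for single members, 837 kept direction and side of the thresholds, 12 passed them anew and 15 no longer did.

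The count over all genes in WY vs. WO went from 46 to 73 in batch 1, 80 with batch as a term, 26 without WO2, 27 without WO3, 23 without WY1, 30 without WY2 and 7 without WY3. In WY vs. MY they were 1 to 17. With 0.1 in place of 1 they were 1483 in MY vs. MO, 1529 in WO vs. MO and 1548 for the age effect, so the shares of all genes given beside the members depend on that choice. Depth per gene is unknown, and what it limits cannot be given.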
